A study of Mus musculus with 5 samples.

Results

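The mouse liver genes described are those of glycogen synthesis, glycogen breakdown and their control, 9 in number: Ppp1r3b, Ppp1r3c, Ppp1r3g, Gys2, Gbe1, Ugp2, Pygl, Phka2 and Gsk3b. They were taken by gene name from the non-control probes of the array, which carry 36870 gene names on 56605 probes, and the 9 genes have 17 probes. The groups were BSO plus TGZ, TGZ, BSO plus RGZ, RGZ and vehicle, each 1 pool of equal amounts of liver RNA from 6 female BALB/c mice, 6 weeks old, with livers collected 6 hr after intraperitoneal dosing. TGZ (troglitazone) and RGZ (rosiglitazone) were each given at 300 mg/kg, and BSO (buthionine sulfoximine, an inhibitor of glutathione synthesis) at 700 mg/kg. The names behind the abbreviations come from the study's title and general knowledge. The labels do not give the order of BSO and the other compound or the time between them. No group had BSO without a thiazolidinedione, so the change with BSO could be read only on top of TGZ or RGZ. Each pool was run on 1 single-colour array, all 5 on 1 slide, so there was no replicate and no difference was tested. Precision is limited by the number of arrays. All comparisons with vehicle share the single vehicle array.

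Hepatocytes store glucose as glycogen after a meal and release it during fasting. UDP-glucose pyrophosphorylase makes the activated sugar, glycogen synthase and the branching enzyme build the polymer, and glycogen phosphorylase, switched on by phosphorylase kinase, takes it apart. Glycogen synthase is inhibited when glycogen synthase kinase 3 phosphorylates it and is reactivated by protein phosphatase 1, which targeting subunits of the PPP1R3 family hold on the glycogen particle. Insulin favours synthesis, and glucagon and adrenaline, through cyclic AMP and calcium, favour breakdown.

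Signals are given as multiples of the 75th percentile of the array's probes, so 1 is the level of that percentile. Probes differ in brightness for reasons other than the amount of RNA, so levels are compared between arrays and never between genes. Differences are on the log2 scale and are shown with folds, whose 95% intervals come from the scanner software's own error of the spots compared and leave out the spread between animals, pools and labelling reactions. A difference is called beyond spot error when that interval excludes 0 on the log2 scale. The software's error had a median of 0.146 on the log2 scale on each array, over probes well above background. Probes with at least 10 spots had a median SD between spots of 0.041 to 0.043. Within spot error therefore refers to the software's error, which is wider than the spread of repeated spots. Between 51.9% and 55.1% of an array's probes were well above background, and no spot was saturated. The main probe of each of the 9 genes was well above background on all 5 arrays. All 8 hepatocyte markers were too, and none of them differed 2-fold from vehicle in a treated group. In pooled liver RNA, a change in the share of a cell type and a change in RNA per cell cannot be told apart.

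The targeting subunits of protein phosphatase 1 held the extremes. Ppp1r3g, a subunit whose liver mRNA is known to change between fasting and feeding in mice, was 34.3-fold higher with TGZ than with vehicle, while Ppp1r3c, known as protein targeting to glycogen, was 8.85-fold lower. With RGZ at the same dose, Ppp1r3g was 2.06-fold lower and Ppp1r3c 1.46-fold lower. Ppp1r3b, a targeting subunit abundant in liver, differed by less than spot error between TGZ and vehicle.

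**Figure D1:**
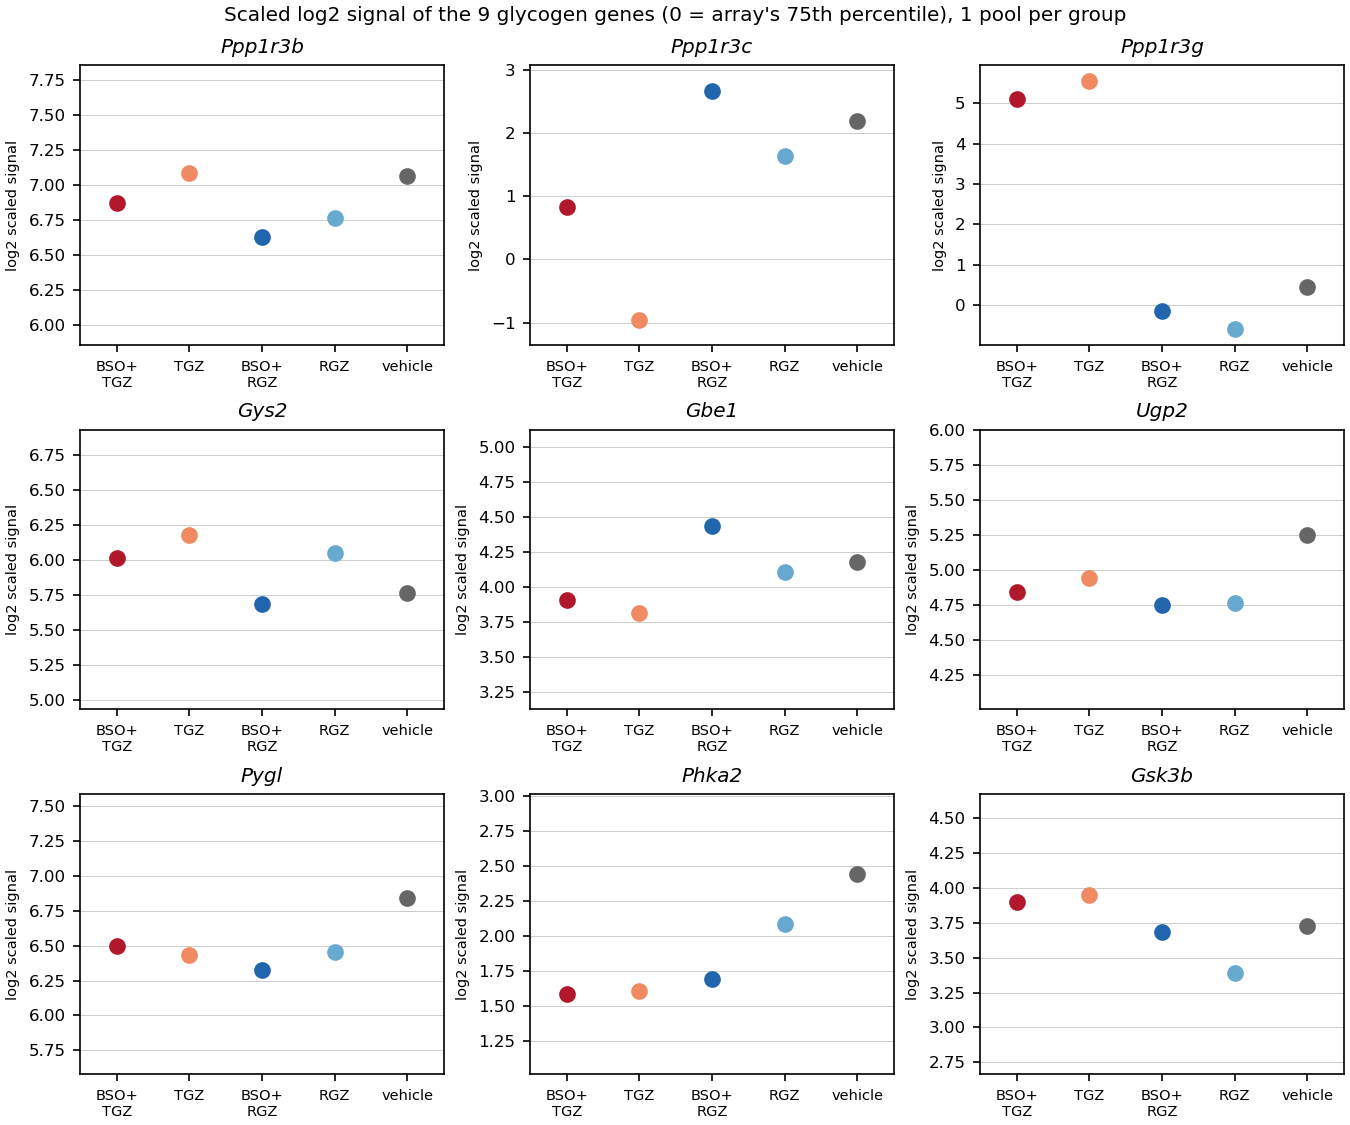
Scaled log2 signal of the main probe of each gene (vertical axis, with 0 at the 75th percentile of the array) in the 5 groups, 1 pool per group and 1 point per pool; the vertical range differs between panels. Ppp1r3g sits above 5 in both TGZ groups and below 1 in the other 3 groups, and Ppp1r3c is lowest with TGZ and highest with BSO plus RGZ.

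Ppp1r3g was read by probe A_51_P155873, on transcript NM_029628 (mm9 chr13:36061999-36062058). Its signal was 34.8 with BSO plus TGZ, 46.8 with TGZ, 0.893 with BSO plus RGZ, 0.661 with RGZ and 1.36 with vehicle. Both TGZ pools lay far above the other 3, and the order of all 5 levels held beyond spot error at every step. The log2 difference from vehicle was 5.10 with TGZ, 34.3-fold higher (26.0 to 45.3), and 4.67 with BSO plus TGZ, 25.5-fold higher (19.3 to 33.7). Of 21214 genes with a value, 36 had a larger difference between TGZ and vehicle. In the RGZ pools the difference from vehicle ran the other way, at -1.05 with RGZ, 2.06-fold lower (1.56 to 2.73), and -0.61 with BSO plus RGZ, 1.53-fold lower (1.16 to 2.02). The lower value with RGZ passed 2-fold by little, and scaling to the spike-in RNA put it at -0.95 and normexp background correction at -0.79.

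The plus-strand window before the Ppp1r3g start site in RefSeq (GRCm38.p6, chr13:35967656-35967905, 250 bases) is printed because this gene had the largest difference of the 9. The capitals mark TGACG, the core of the cyclic AMP response element, found 40 bases before the start. This core, on either strand, occurs in 20.8% of the 32851 windows of 300 bases in the RefSeq table, and the match is a description only.
Ppp1r3g promoter: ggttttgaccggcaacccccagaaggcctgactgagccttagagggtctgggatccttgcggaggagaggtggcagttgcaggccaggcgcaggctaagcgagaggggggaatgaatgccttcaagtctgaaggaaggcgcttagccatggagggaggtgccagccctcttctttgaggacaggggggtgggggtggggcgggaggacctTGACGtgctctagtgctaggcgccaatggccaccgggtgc

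Ppp1r3c was read by probe A_52_P30451, on transcript NM_016854 (mm9 chr19:36806457-36806516). The signals were 1.77 with BSO plus TGZ, 0.516 with TGZ, 6.36 with BSO plus RGZ, 3.12 with RGZ and 4.56 with vehicle. The pools ran, from high to low, BSO plus RGZ, vehicle, RGZ, BSO plus TGZ and TGZ, and each step in that order was beyond spot error. With TGZ the log2 difference from vehicle was -3.14, 8.85-fold lower (6.67 to 11.7), and 91 of 21214 genes had a lower value. BSO plus TGZ was 2.57-fold lower than vehicle (1.95 to 3.40) and RGZ 1.46-fold lower (1.11 to 1.93), while BSO plus RGZ was 1.39-fold higher (1.06 to 1.84). The size with TGZ was smaller after normexp, with a log2 difference of -2.56. Normexp was run with an offset of 50 added to every signal, which by itself shrinks the folds of dim probes. The intensity with TGZ before scaling was 73.0, so the part of the background correction in this change was not separated.

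The minus-strand window before the Ppp1r3c start site (GRCm38.p6, chr19:36736605-36736854, 250 bases) is set beside that of Ppp1r3g because the 2 genes moved in opposite directions with TGZ. Its capitals mark CACGTG, the E-box read by basic helix-loop-helix factors, 104 bases before the start. This E-box is its own reverse complement and occurs in 7.2% of the windows in the table.
Ppp1r3c promoter: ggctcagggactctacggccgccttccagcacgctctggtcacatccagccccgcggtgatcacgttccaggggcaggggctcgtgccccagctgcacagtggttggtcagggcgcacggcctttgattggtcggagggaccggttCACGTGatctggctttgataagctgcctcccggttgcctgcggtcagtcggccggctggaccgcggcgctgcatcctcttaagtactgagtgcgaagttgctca

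Windows were in the RefSeq table for 7 of the 9 genes, 8 windows in all. The search, on both strands, also covered the FOXO site TGTTTAC, the full cyclic AMP response element TGACGTCA and the glucocorticoid receptor core TGTTCT. The full cyclic AMP element contains the core TGACG. Neither TGTTTAC nor TGACGTCA is in these letters for the 7 genes, against 3.6% and 1.8% of all windows. Pygl carries the core TGACG on the reverse strand, 44 bases before the start, and Phka2 carries TGTTCT 153 bases before it, a motif present in 19.0% of windows.

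Ppp1r3b was read by probe A_55_P1967133 on transcript NM_177741 (mm9 chr8:36451115-36451174). Its signal was 117 with BSO plus TGZ, 136 with TGZ, 99.2 with BSO plus RGZ, 109 with RGZ and 134 with vehicle. The highest of the 5 was 1.37 times the lowest, and no step between neighbours in the order was beyond spot error. Among the 8 comparisons made, only that of BSO plus RGZ with vehicle was, at 1.35-fold lower (1.02 to 1.78).

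The enzymes that build glycogen stayed within 2-fold of vehicle in every treated pool when read by their main probes. Gys2, liver glycogen synthase (probe A_55_P1992555, NM_145572, mm9 chr6:142371157-142371216), had a signal of 64.6 with BSO plus TGZ, 72.4 with TGZ, 51.5 with BSO plus RGZ, 66.4 with RGZ and 54.3 with vehicle. These 5 levels lay close together, and no neighbours in their order differed beyond spot error. The log2 difference between TGZ and vehicle was 0.42, 1.33-fold higher (1.01 to 1.76), but -0.04 with scaling to the spike-in RNA, which by itself moved the median of all genes by -0.46 in that comparison.

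Ugp2, UDP-glucose pyrophosphorylase (probe A_55_P2021049, NM_139297, mm9 chr11:21221975-21222034), had a signal of 28.7 with BSO plus TGZ, 30.8 with TGZ, 27.0 with BSO plus RGZ, 27.3 with RGZ and 38.2 with vehicle. Vehicle was the highest of the 5, and the 4 treated pools lay close together. Ugp2 was 1.33-fold lower with BSO plus TGZ (1.01 to 1.76), 1.42-fold lower with BSO plus RGZ (1.07 to 1.87) and 1.4-fold lower with RGZ (1.06 to 1.85), all against vehicle. The difference with TGZ alone was -0.31 on the log2 scale and within spot error (-0.71 to 0.09).

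Gbe1, the branching enzyme, has 3 probes. The brightest (A_51_P273684, NM_028803, mm9 chr16:70569840-70569899) gave 15.0 with BSO plus TGZ, 14.0 with TGZ, 21.6 with BSO plus RGZ, 17.2 with RGZ and 18.1 with vehicle. Neither TGZ pool differed from vehicle beyond spot error there, and BSO plus TGZ was 1.44-fold lower than BSO plus RGZ (1.09 to 1.90). A second probe on the same transcript, A_65_P10159, ran the same way in the comparison of the BSO pools, at 1.49-fold lower (1.13 to 1.97). The dimmest probe, A_55_P2727654, lies on transcript ENSMUST00000099628 (mm9 chr16:70361835-70361894). It gave 0.429 with BSO plus TGZ, 0.260 with TGZ, 0.576 with BSO plus RGZ, 0.413 with RGZ and 0.637 with vehicle. That probe was 2.45-fold lower with TGZ than with vehicle (1.80 to 3.33), a size the other 2 Gbe1 probes did not show, and after normexp its log2 difference was -0.55.

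On the side of breakdown, vehicle again gave the highest level of both genes. Pygl, liver glycogen phosphorylase (probe A_51_P452779, NM_133198, mm9 chr12:71291855-71291914), had a signal of 90.2 with BSO plus TGZ, 86.5 with TGZ, 80.1 with BSO plus RGZ, 87.6 with RGZ and 114.5 with vehicle. The treated pools lay close together below vehicle. The difference from vehicle was beyond spot error with TGZ, at 1.32-fold lower (1.00 to 1.75), and with BSO plus RGZ, at 1.43-fold lower (1.08 to 1.89), and not with BSO plus TGZ or RGZ.

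Phka2, the liver alpha subunit of phosphorylase kinase, has 4 probes. The brightest (A_55_P2140288, NM_172783, mm9 chrX:157029014-157029073) gave 3.0 with BSO plus TGZ, 3.05 with TGZ, 3.24 with BSO plus RGZ, 4.25 with RGZ and 5.45 with vehicle. BSO plus TGZ, TGZ and BSO plus RGZ sat together at the low end, and RGZ lay between them and vehicle. Against vehicle, Phka2 was 1.82-fold lower with BSO plus TGZ (1.38 to 2.40), 1.79-fold lower with TGZ (1.35 to 2.36) and 1.68-fold lower with BSO plus RGZ (1.28 to 2.22). The difference with RGZ alone was -0.36 on the log2 scale and within spot error.

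The 4 Phka2 probes gave the same direction in every comparison with vehicle but not the same size. Probe A_55_P2596648 spans mm9 chrX:156971005-156979355 on transcript NM_001177878, 8351 bases of genome for 60 bases of probe, so it crosses at least 1 splice junction. Probe A_52_P657963 lies at mm9 chrX:156967675-156967734, upstream of it on the plus strand, on transcript ENSMUST00000146752. The 2 probe sequences, shown because the array files place them on different Phka2 transcripts, are these, with no capitals since no motif was sought in them.
A_55_P2596648: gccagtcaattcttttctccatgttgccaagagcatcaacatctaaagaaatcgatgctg
A_52_P657963: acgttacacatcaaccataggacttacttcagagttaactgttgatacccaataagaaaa

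With A_52_P657963 the signal was 0.356 with BSO plus TGZ, 0.309 with TGZ, 0.614 with BSO plus RGZ, 0.928 with RGZ and 1.43 with vehicle. All 4 treated pools were below vehicle there, the TGZ pools most. The fold was 4.02 lower with BSO plus TGZ (3.02 to 5.35), 4.63 lower with TGZ (3.46 to 6.18), 2.33 lower with BSO plus RGZ (1.76 to 3.08) and 1.54 lower with RGZ (1.17 to 2.04). With A_55_P2596648 the difference from vehicle was 2.11-fold lower with BSO plus TGZ and 1.84-fold lower with TGZ. The fourth probe, A_52_P671916 at mm9 chrX:157028157-157028216 on NM_172783, was 1.83-fold lower with BSO plus TGZ and 1.74-fold lower with TGZ. A gene value that averaged the 4 probes was past 2-fold lower, at -1.20 with BSO plus TGZ and -1.18 with TGZ on the log2 scale.

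Gsk3b, glycogen synthase kinase 3 beta, which inhibits glycogen synthase by phosphorylation, has 4 probes. The brightest (A_55_P1981415, NM_019827, mm9 chr16:38241177-38241236) gave 14.9 with BSO plus TGZ, 15.4 with TGZ, 12.9 with BSO plus RGZ, 10.5 with RGZ and 13.2 with vehicle. No treated pool differed from vehicle beyond spot error there. Probe A_66_P104190 on the same transcript was 1.39-fold lower with TGZ (1.05 to 1.84) and 1.44-fold lower with RGZ (1.09 to 1.90) than with vehicle, so the probes disagreed in sign for TGZ. Probe A_65_P12518, on transcript ENSMUST00000132057 (mm9 chr16:38209014-38209073), was not well above background with BSO plus RGZ or with vehicle. Its signal was 0.235 with BSO plus TGZ, at least 4.2-fold higher than vehicle, and 0.093 with TGZ, at least 1.67-fold higher. A bound of this kind sets the bright pool against the lowest signal called well above background on the dim array. The other 3 Gsk3b probes were within 2-fold of vehicle in every treated pool.

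**Figure D2:**
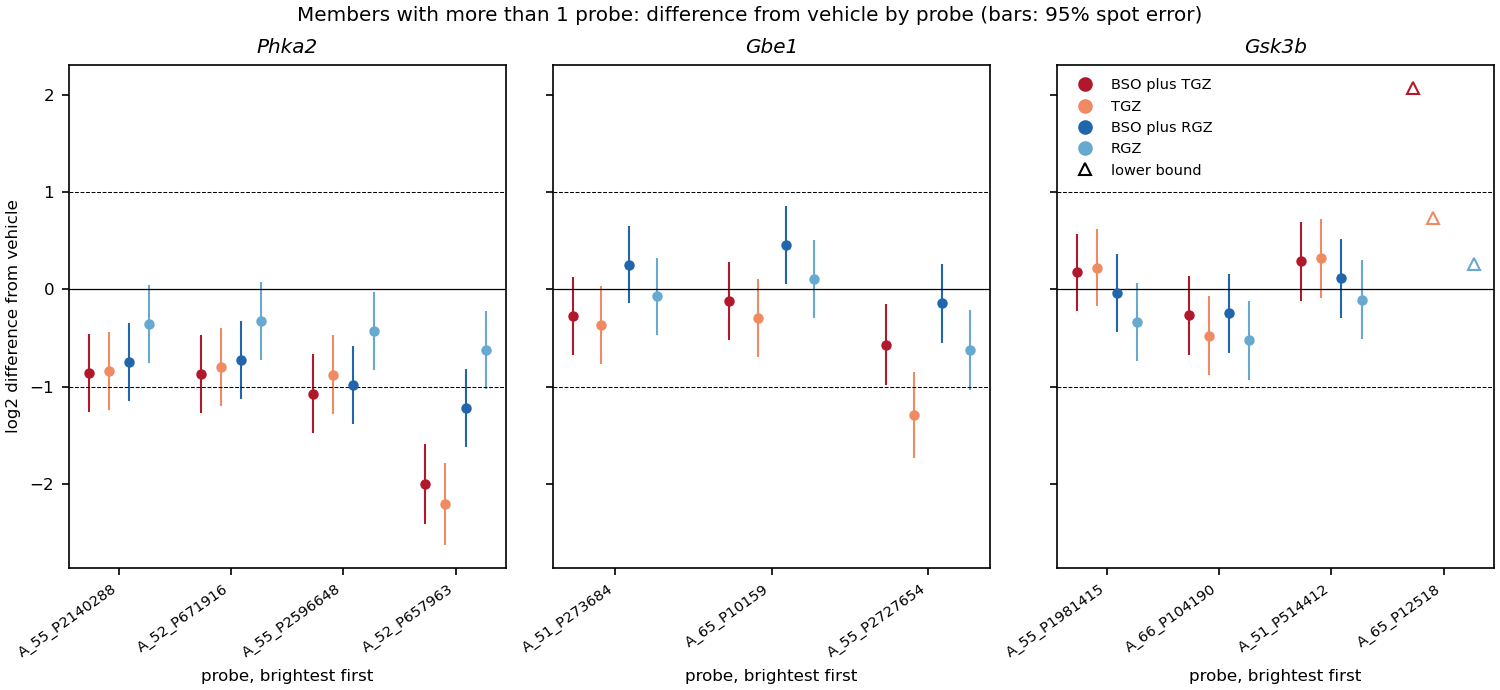
Log2 difference from vehicle (vertical axis) of every probe of Phka2, Gbe1 and Gsk3b, with 95% intervals of spot error, for BSO plus TGZ, TGZ, BSO plus RGZ and RGZ; open triangles are lower bounds and dashed lines mark 2-fold. The dimmest Phka2 probe is the lowest in both TGZ groups, at -2.01 and -2.21, while the 3 brighter Phka2 probes lie between -0.80 and -1.07 there.

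Counted by main probes, 2 of the 9 genes were at least 2-fold from vehicle with TGZ, Ppp1r3g higher and Ppp1r3c lower, against 19.6% of all genes with a value. The same 2 genes passed with BSO plus TGZ, where 14.2% of all genes did. Only Ppp1r3g, which was lower, passed with RGZ, against 3.31% of all genes, and none of the 9 with BSO plus RGZ, against 6.83%. With TGZ the share among the 9 was near that among all genes, and 1 gene more or fewer would move any of these shares a long way. These counts are therefore no result about the group of 9, and the differences of Ppp1r3g and Ppp1r3c are described by their size. The median log2 difference of the 9 genes was -0.27 with BSO plus TGZ, -0.31 with TGZ, -0.43 with BSO plus RGZ and -0.36 with RGZ, beside -0.03, 0.02, -0.05 and -0.04 for all genes with a value. These medians share the 1 vehicle array and are not independent of each other.

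**Figure D3:**
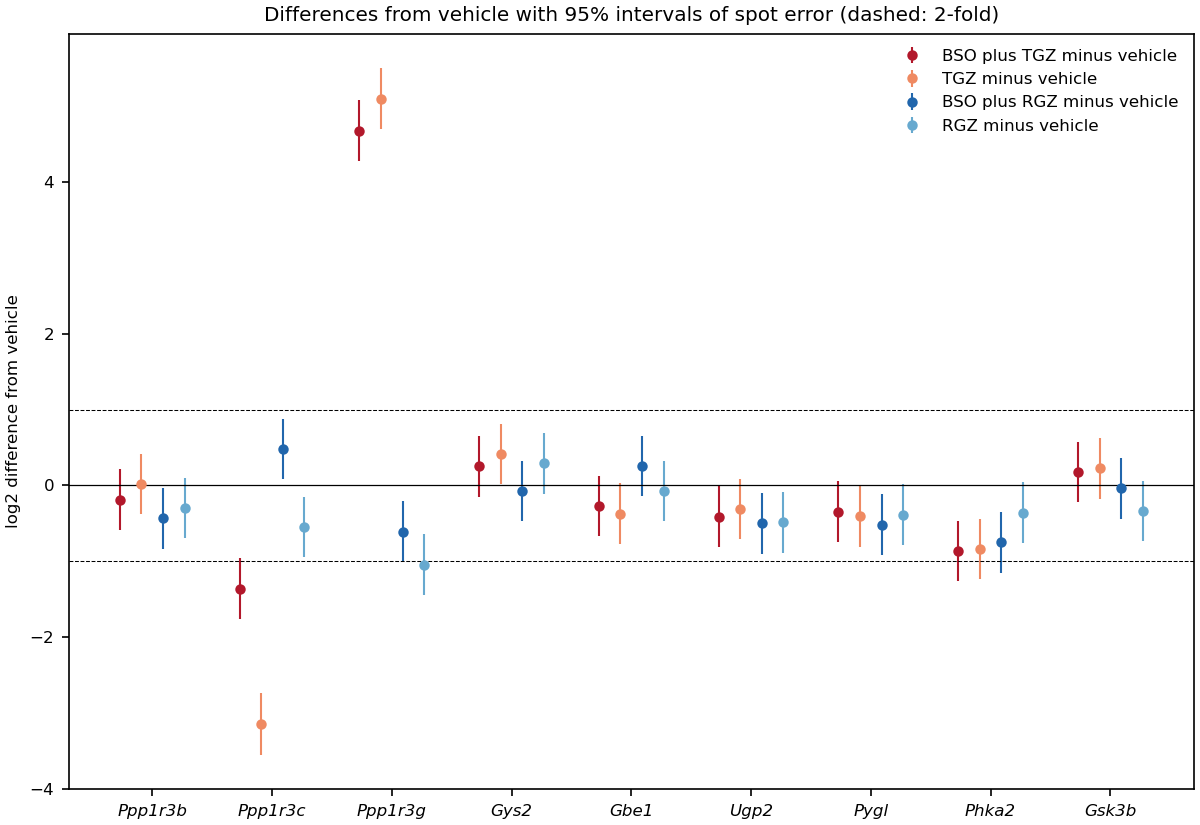
Log2 difference from vehicle (vertical axis) of the main probe of each of the 9 genes in the 4 treated groups, with 95% intervals of spot error; dashed lines mark 2-fold. Ppp1r3g stands at 4.67 and 5.10 in the TGZ groups and below 0 in the RGZ groups, Ppp1r3c is at -3.14 with TGZ, and the other 7 genes lie between the dashed lines.

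TGZ and RGZ are both thiazolidinediones and agonists of the nuclear receptor PPAR gamma, and they differ in the side of the molecule away from the thiazolidinedione ring, which carries a chromanol group in TGZ and an aminopyridine group in RGZ. They were given at the same dose and read at the same time, and all 9 genes were compared. Between TGZ and RGZ, 2 of the 9 genes were past 2-fold by their main probes, against 18.0% of all genes. Ppp1r3g was 70.8-fold higher with TGZ than with RGZ (53.6 to 93.7), with 4 genes of the array ahead of it, and Ppp1r3c was 6.04-fold lower (4.56 to 8.01). Gsk3b was 1.48-fold higher with TGZ by its brightest probe (1.12 to 1.95). That difference of 0.56 on the log2 scale became 0.01 with scaling to the spike-in RNA. By the other Gsk3b probes it was 0.05 for A_66_P104190 (-0.36 to 0.46) and 0.43 for A_51_P514412 (0.02 to 0.83). For the dim A_65_P12518 it was 0.48 (-0.35 to 1.30). Phka2 was 1.39-fold lower with TGZ than with RGZ by its brightest probe (1.06 to 1.84) and 3.0-fold lower by A_52_P657963 (2.24 to 4.01).

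For the main probes of the other 5 genes the difference between TGZ and RGZ was within spot error. On the log2 scale it was 0.32 for Ppp1r3b (-0.08 to 0.72), 0.13 for Gys2 (-0.27 to 0.53) and -0.30 for Gbe1 (-0.70 to 0.10). It was 0.18 for Ugp2 (-0.22 to 0.58) and -0.02 for Pygl (-0.42 to 0.38). These intervals do not show that the compounds acted alike, and scaling to the spike-in RNA lowered all values of this comparison by about 0.55, the shift of the median of all genes, which turned the sign for Ppp1r3b, Gys2 and Ugp2. Between BSO plus TGZ and BSO plus RGZ, again 2 of the 9 genes passed 2-fold by their main probes, against 13.6% of all genes. Ppp1r3g was 39.0-fold higher with BSO plus TGZ (29.5 to 51.5) and Ppp1r3c 3.59-fold lower (2.72 to 4.73), and Gbe1, as given above, was the only other gene beyond spot error by its main probe.

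With BSO added, Ppp1r3c was the 1 gene of the 9 past 2-fold by its main probe, on top of either compound. Its signal of 1.77 with BSO plus TGZ, against 0.516 with TGZ, was a 3.44-fold higher level (2.59 to 4.56), in a comparison where 2.06% of all genes passed 2-fold and 51 of 20808 genes had a larger value. Its signal of 6.36 with BSO plus RGZ, against 3.12 with RGZ, was 2.04-fold higher (1.55 to 2.69), where 1.23% of all genes passed. Under normexp the difference between BSO plus RGZ and RGZ was 0.94 on the log2 scale, just under 2-fold. BSO plus TGZ did not bring Ppp1r3c to the level of vehicle, which was 2.57 times higher. The dim Gsk3b probe A_65_P12518 was also past 2-fold, 2.52-fold higher with BSO plus TGZ than with TGZ (1.59 to 4.0), while the main Gsk3b probe had a log2 difference of -0.05. After normexp the log2 difference of A_65_P12518 was 0.18, against 1.33 before it. Its intensities before scaling, 39.9 with BSO plus TGZ and 13.2 with TGZ, were below the normexp offset of 50. That offset by itself shrinks such a fold.

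Ppp1r3g went opposite ways with BSO, 1.34-fold lower with BSO plus TGZ than with TGZ (1.02 to 1.77) and 1.35-fold higher with BSO plus RGZ than with RGZ (1.02 to 1.79). The BSO effect on top of TGZ less that on top of RGZ was 0.75 on the log2 scale for Ppp1r3c (0.18 to 1.32) and -0.86 for Ppp1r3g (-1.43 to -0.29). It included 0 for the other 7 genes, with values from -0.35 for Gsk3b to 0.37 for Phka2. Of 18483 genes well above background on all arrays, 3.09% differed by 2-fold or more in this measure, and none of the 9 did. With median scaling the value for Ppp1r3g was -1.01, just past 2-fold. After normexp the value for Ppp1r3c was 0.37.

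**Figure D4:**
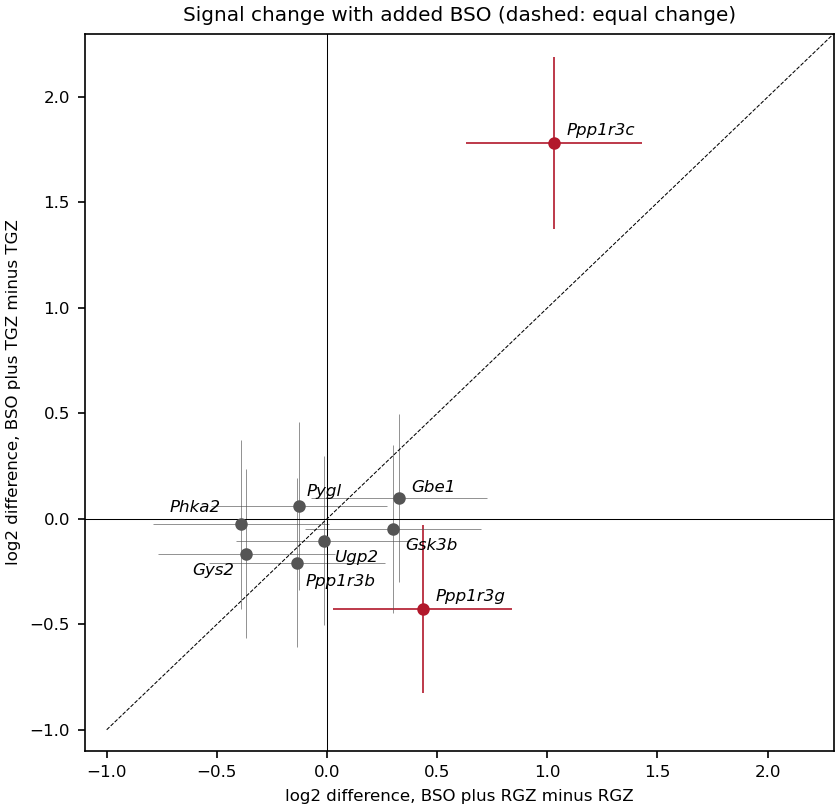
Log2 difference with BSO on top of TGZ (vertical axis) against that on top of RGZ (horizontal axis) for the 9 genes, with 95% intervals of spot error; the dashed line marks equal differences. Ppp1r3c lies at 1.78 and 1.03, Ppp1r3g at -0.43 and 0.43, and the other 7 genes are within 0.4 of 0 on both axes.

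The other genes of glycogen metabolism and its control were read from 5 lists of 83 genes. Of all genes with a value, 19.6% were past 2-fold from vehicle with TGZ and 14.2% with BSO plus TGZ. The share was 3.31% with RGZ and 6.83% with BSO plus RGZ. The counts from these 5 lists are set beside those shares and are no result about a list. With TGZ against vehicle, 1 of 17 other glycogen genes was past 2-fold higher and 1 lower. The higher was the phosphoglucomutase of accession NM_025700, called Pgm1 on the array and Pgm2 in RefSeq, at 3.23-fold (2.21 to 4.71). The other phosphoglucomutase, NM_028132, called Pgm2 on the array and Pgm1 in RefSeq, had a log2 difference of -0.15. The gene called Pgm1 on the array was dim, with a signal of 0.381 with TGZ and 0.118 with vehicle. The lower gene was Stbd1, which binds glycogen, at 2.92-fold (2.21 to 3.85). The median of the 17 was -0.51 with TGZ and -0.03 with RGZ, where none passed 2-fold. The TGZ median again moves with the scaling, whose shift with spike-in RNA is given above.

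Beside 19.6% of all genes past 2-fold with TGZ, 3 of 12 other protein phosphatase 1 genes with a value were higher and none lower. They were Ppp1r15a, which directs the phosphatase to the translation factor eIF2 alpha, at 4.34-fold (3.29 to 5.72), Ppp1r10, a nuclear subunit, at 3.45-fold (2.61 to 4.55), and Ppp1r3d, a further glycogen-targeting subunit, at 2.56-fold (1.82 to 3.60). Ppp1r3d was dim, with a signal of 0.405 with TGZ and 0.158 with vehicle, and its log2 difference was 0.66 after normexp. The same 3 genes passed with BSO plus TGZ. With RGZ only Ppp1r10 passed, at 2.17-fold higher, and with BSO plus RGZ none did.

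Among 12 genes of glucose entry and exit, G6pc, the glucose-6-phosphatase that lets glucose leave the hepatocyte, stood out. Its signal was 23.1 with BSO plus TGZ, 3.54 with TGZ, 60.9 with BSO plus RGZ, 57.2 with RGZ and 46.3 with vehicle. Like Ppp1r3c it was lowest with TGZ and partly higher with BSO plus TGZ, by 6.52-fold over TGZ alone (4.94 to 8.60). It was the only list gene past 2-fold in that comparison, and no list gene passed between BSO plus RGZ and RGZ. Of all genes with a value, 2.06% and 1.23% passed in these 2 comparisons. Hk2, a hexokinase typical of muscle and fat, was 2.19-fold higher with TGZ than with vehicle (1.39 to 3.44). Hk2 was dim, with a signal of 0.169 with TGZ and 0.077 with vehicle. Neither RGZ pool had a gene of this list past 2-fold from vehicle.

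In the insulin arm, 3 of 15 genes were past 2-fold higher with TGZ and 1 lower, against 19.6% of all genes either way. The same 4 genes passed with BSO plus TGZ, against 14.2% of all genes. Irs2, the receptor substrate that carries much of the insulin signal in liver, had a signal of 38.1 with BSO plus TGZ, 59.5 with TGZ, 4.79 with BSO plus RGZ, 5.43 with RGZ and 5.75 with vehicle. Both TGZ pools were far above the other 3, in the way of Ppp1r3g. Irs1 was 2.42-fold lower with TGZ than with vehicle (1.83 to 3.19). Ptpn1, a phosphatase that acts on the insulin receptor, was 3.52-fold higher and the adaptor Grb10 2.2-fold higher. Grb10 was dim, with a signal of 0.436 with TGZ and 0.199 with vehicle. With RGZ and BSO plus RGZ only Ptpn1 passed, at 2.05-fold and 2.02-fold higher.

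In the glucagon, adrenaline and cyclic AMP arm, 4 of 22 genes with a value were past 2-fold higher and 2 lower with TGZ. Of all genes with a value, 19.6% were past 2-fold either way there. Crem, a cyclic AMP-responsive transcription factor, was 5.12-fold higher (3.88 to 6.76). The alpha adrenergic receptor Adra1b was 3.73-fold lower (2.82 to 4.92) and the phosphodiesterase Pde4a 3.66-fold lower (2.69 to 5.0). A further phosphodiesterase, Pde4b, was 2.80-fold higher with TGZ and 2.32-fold lower with RGZ, both against vehicle. With RGZ, the phosphodiesterase Pde7b was also lower, at least 2.61-fold. BSO plus TGZ had 3 higher and 2 lower, and BSO plus RGZ had 3 lower, among them Adra1b at 2.92-fold.

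**Figure D5:**
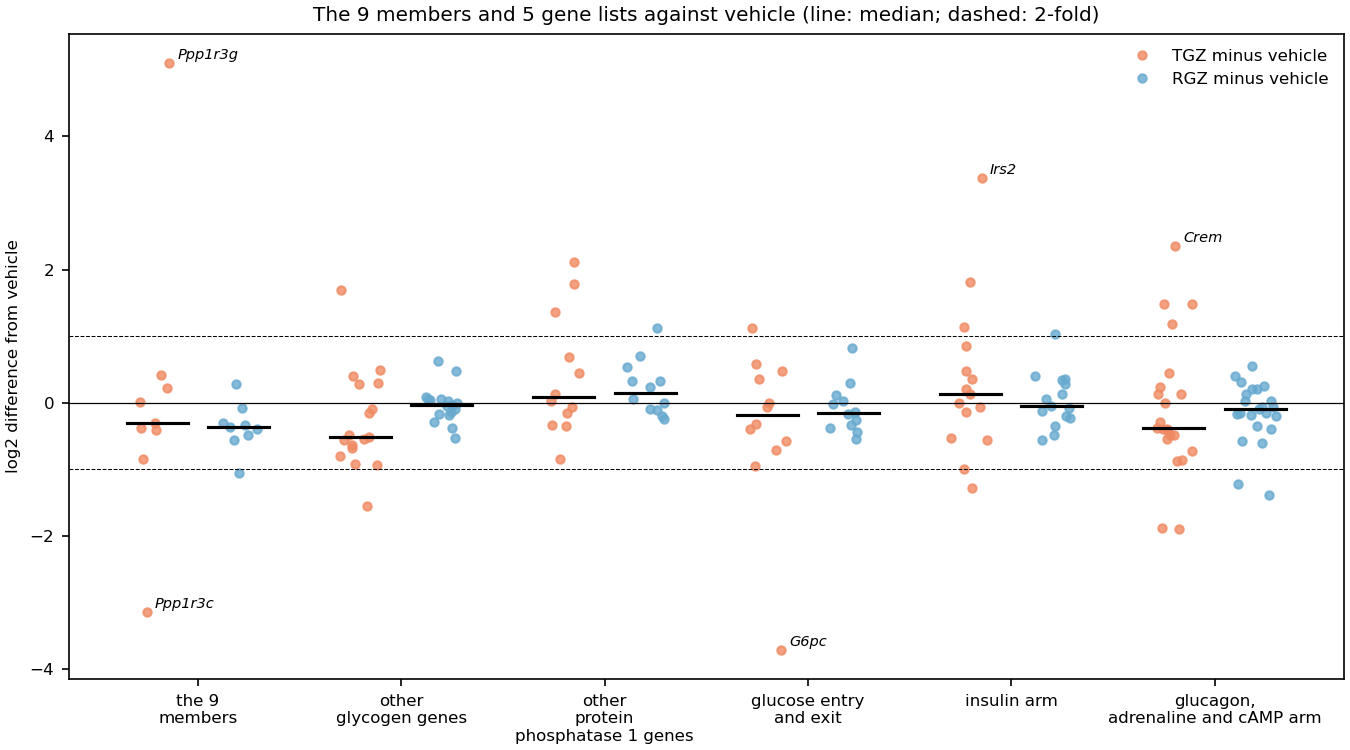
Log2 difference from vehicle (vertical axis) of the 9 genes and of the genes in the 5 lists (horizontal axis), for TGZ and for RGZ, with 1 point per gene, a bar at the median and dashed lines at 2-fold; the points of Pygb and Prkar1b for TGZ and of Adra1a and Pde7b for RGZ are bounds. Ppp1r3g at 5.10 is the highest point shown, G6pc at -3.71 and Ppp1r3c at -3.14 are the lowest, and the RGZ points stay between -1.4 and 1.2.

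Markers of other cells moved with the TGZ groups, among them those of neutrophils and of sinusoidal endothelium. The summed signal of 6 neutrophil markers was 139.5 with BSO plus TGZ, 138.5 with TGZ, 31.8 with BSO plus RGZ, 23.7 with RGZ and 9.39 with vehicle. Of the 6, 4 were past 2-fold higher than vehicle with BSO plus TGZ and with TGZ, and 3 with BSO plus RGZ and with RGZ. The hepatocyte sum was 8832 with BSO plus TGZ, 10060 with TGZ, 7247 with BSO plus RGZ, 7303 with RGZ and 8176 with vehicle. The part of neutrophils in the Ppp1r3g, Irs2 and Hk2 levels was not tested. The sum over 6 sinusoidal endothelial markers was 49.7 with BSO plus TGZ, 35.3 with TGZ, 54.3 with BSO plus RGZ, 58.9 with RGZ and 63.5 with vehicle. With TGZ, 4 of these 6 were past 2-fold lower than vehicle and 1 higher, and with BSO plus TGZ 1 was lower and 1 higher. The sum over 6 Kupffer cell markers was 40.8 with BSO plus TGZ, 28.4 with TGZ, 34.2 with BSO plus RGZ, 38.7 with RGZ and 34.5 with vehicle. Both sums were lowest with TGZ, as Ppp1r3c and G6pc were.

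Between BSO plus TGZ and TGZ the median log2 difference was 0.57 for the endothelial and 0.67 for the Kupffer cell markers, beside -0.02 for all genes, and no marker of either list passed 2-fold. Between BSO plus RGZ and RGZ, where Ppp1r3c was also higher, these medians were -0.13 and -0.08. The part of these cells in the Ppp1r3c and G6pc levels was not tested. Of 6 skeletal muscle markers, 3 were well above background on all 5 arrays, and Myh1, Acta1 and Ckm were not on any. The skeletal muscle sum lay between 0.624 and 0.845 in the 5 pools. In each of the stellate cell, bile duct, erythroid, and B and T cell lists, of 6 markers each, at most 1 marker was past 2-fold higher and at most 2 lower than vehicle in a treated pool.

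The genes with the pattern most like a member's were found by the root of the summed squared differences of centred log2 signal over the 5 arrays, among 13909 genes. Nearest to Ppp1r3g were Sphk1, sphingosine kinase 1, at a distance of 0.79, the immediate early gene Nr4a1 at 0.90 and the splicing factor gene Srrm4 at 0.98, where the 1000th gene was at 4.99. Sphk1 was 50.1-fold higher with TGZ than with vehicle. Nearest to Ppp1r3c were Bahcc1 at 0.62, the iron exporter gene Slc40a1 at 0.64 and Gm38426 at 0.70, with the 1000th gene at 1.92. Slc40a1 had a signal of 8.62 with BSO plus TGZ, 3.38 with TGZ, 24.3 with BSO plus RGZ, 19.5 with RGZ and 21.6 with vehicle. Like Ppp1r3c it was lowest with TGZ and highest with BSO plus RGZ, a likeness that follows from how it was picked.

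Nearest to Phka2 were Pcbd1 at 0.05, Pgghg at 0.05 and Zfand1 at 0.07, with the 1000th gene at 0.46. These 3 distances were below the software's median spot error of 0.146, so the rank among near genes was not resolved. No neighbours in the order of the 5 Phka2 levels differed beyond spot error by the main probe. With TGZ against vehicle these 3 had log2 differences of -0.81, -0.85 and -0.86. With the RGZ pool they were between -0.30 and -0.32. A distance over 5 arrays describes these arrays only.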

How the data were processed

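Equal amounts of liver RNA from 6 mice were pooled per group, per the series' design text, and the Cy3-labelled RNA was read on Agilent mouse arrays, 1 array per group. The deposited array files give a processed intensity per spot, from which background had been subtracted in Agilent Feature Extraction (version 12.0.3.1), per the file headers, with no scaling between arrays. The authors' deposited log2 table matched the log2 of that intensity up to a constant per array, with column medians of 4.07 for BSO plus TGZ, 4.01 for TGZ, 3.92 for BSO plus RGZ, 4.00 for RGZ and 4.02 for vehicle. It is thus scaled, not centred per gene, and no source used here names the tool of that scaling.

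Non-control spots of a probe were averaged, and each array's 75th percentile of log2 signal was subtracted. On the intensity scale that percentile was 169.8 for BSO plus TGZ, 141.5 for TGZ, 191.2 for BSO plus RGZ, 208.4 for RGZ and 184.5 for vehicle. A gene was read by its brightest probe (mean of 5 arrays). Intervals are 1.96 times the combined scanner error of both spots. Genes well above background on at least 1 of the 2 arrays compared were counted at 2-fold, and a gene dim on 1 of them was given as a bound. The alternatives were median scaling, spike-in scaling, normexp in limma 3.58.1 (offset 50), the mean over a gene's probes, the deposited table, no filter on dim probes, and genes well above background on all 5 arrays. R 4.3.3 and Python 3.11.15 were used, and the steps were tested on simulated data. The rule for named genes took all 9 members with every probe, from each list the genes past 2-fold with up to 4 examples, and 3 nearest genes for each of the 3 members with the largest range. All 83 list genes and 56 cell type markers matched the array, and 1 further list gene is not reported here. Probe coordinates, on mm9, were copied from the array files. The members and lists were chosen with earlier results of these data known.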

Additional observations from a re-analysis of the deposited data

Results flagged for a closer look

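For 2 of the genes, groups moved in opposite directions under the same contrast. With 1 pool per group none of these differences was tested. Ppp1r3g had a log2 difference from vehicle of 5.10 with TGZ and -1.05 with RGZ. The same gene had 4.67 with BSO plus TGZ and -0.61 with BSO plus RGZ, both against vehicle. With BSO added, its log2 difference was -0.43 for BSO plus TGZ against TGZ and 0.43 for BSO plus RGZ against RGZ, each just beyond spot error, and with spike-in scaling the value for BSO plus TGZ against TGZ was -0.16. Ppp1r3c had a log2 difference from vehicle of -1.36 with BSO plus TGZ and 0.48 with BSO plus RGZ. All values against vehicle rest on the 1 vehicle array.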

How the results depend on the processing

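No paired analysis was possible because each group had 1 array. Of 2084 values computed under the 7 alternatives, 1895 stayed close to the main value. Another 187 moved by more than spot error or more than 1.5 times, and 2 that lay beyond spot error changed sign. The total is no measure of stability, because the deposited table and the filter settings could hardly move a value. The deposited table kept 323 of 323, no filter 259 of 265 and the filter over all 5 arrays 261 of 262. Spike-in scaling left 239 of 323 close, normexp 254 of 323, the mean over probes 237 of 265 and median scaling 322 of 323. With spike-in scaling, the TGZ minus vehicle difference of Gys2 was -0.041. The TGZ minus RGZ difference of the Gsk3b probe A_51_P514412 was -0.12 with that scaling. This scaling moved all values of TGZ minus vehicle by about -0.46 and of TGZ minus RGZ by about -0.55, which turned these 2 signs. The 9 genes had 567 of these values, for their differences in the comparisons and for the difference of the BSO effects. Of the 567, a further 37 changed sign where the main value lay within spot error. They were 22 with spike-in scaling, 6 with normexp, 5 with median scaling and 4 with the mean over probes. The deposited table and the filter settings, with 81 of the 567 values each, could hardly move these values and gave 0. The number of the 9 genes past 2-fold was 0 rather than 1 for RGZ minus vehicle with spike-in scaling and with normexp, and 0 rather than 1 for BSO plus RGZ minus RGZ with normexp. Scaling to the spike-in RNA added Phka2 to the genes past 2-fold lower, at -1.29 with TGZ and -1.05 with BSO plus TGZ against vehicle. It also did so for TGZ minus RGZ, at -1.03. Median scaling put Ppp1r3g past 2-fold in the difference of the BSO effects, at -1.01. Ppp1r3g with TGZ against vehicle ranged from 4.64 to 5.12 over the alternatives and Ppp1r3c from -3.60 to -2.56.

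Normexp was run with an offset of 50 added to every signal, which by itself shrinks the folds of dim probes. A lower count with it therefore cannot be assigned to the background correction. The counts of all genes past 2-fold were lower with normexp, and they also depended on the filter. With normexp they were 2003 for TGZ minus vehicle, 1375 for BSO plus TGZ minus vehicle, 224 for RGZ minus vehicle, 527 for BSO plus RGZ minus vehicle, 66 for BSO plus TGZ minus TGZ, 43 for BSO plus RGZ minus RGZ, 1781 for TGZ minus RGZ and 1179 for BSO plus TGZ minus BSO plus RGZ. The main counts in that order were 4167, 3044, 705, 1447, 428, 262, 3788 and 2899. Without the filter on dim probes they were 6890, 5577, 2814, 3901, 2633, 2480, 6523 and 5673. Among genes well above background on all 5 arrays, where fewer genes are tested, RGZ minus vehicle gave 442, BSO plus TGZ minus TGZ 233 and BSO plus RGZ minus RGZ 118. Spike-in scaling gave 734 for BSO plus TGZ minus TGZ.

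The split of these counts also moved with scaling. Spike-in scaling gave 1201 higher and 4287 lower for TGZ minus vehicle, against 2147 and 2020 in the main setting, and 965 higher and 4633 lower for TGZ minus RGZ, against 1985 and 1803. It gave 1392 and 1966 for BSO plus TGZ minus vehicle, against 1780 and 1264, 1067 and 2410 for BSO plus TGZ minus BSO plus RGZ, against 1775 and 1124, and 693 and 41 for BSO plus TGZ minus TGZ, against 325 and 103. It gave 456 and 258 for RGZ minus vehicle, against 350 and 355, and 907 and 576 for BSO plus RGZ minus vehicle, against 646 and 801. Median scaling gave 844 and 621 for BSO plus RGZ minus vehicle, 256 and 145 for BSO plus TGZ minus TGZ, 154 and 101 for BSO plus RGZ minus RGZ, against 111 and 151, and 1368 and 1661 for BSO plus TGZ minus BSO plus RGZ. The spike-in set held 8 probes well above background on all arrays, and the arrays' signal over background limits the dim probes of Gbe1, Phka2 and Gsk3b most.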
